A study of Mus musculus with 8 samples.

Results

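Matrix metalloproteinases (MMPs) are enzymes that cut the proteins of the extracellular matrix. The 10 genes described here, Mmp25, Mmp2, Mmp3, Mmp8, Mmp9, Mmp10, Mmp11, Mmp13, Mmp14 and Mmp19, are 10 of the 23 genes with an Mmp symbol in a table of 54532 mouse genes. They were picked by name as secreted and membrane-bound MMPs, and the choice was made with the measured difference between the 2 groups of tumors in view. Because the members were selected on measured values, their differences between groups are given as a description and support nothing, and no p is given for them. The study treated mice bearing 4T1-FLuc tumors, from a mouse triple-negative breast cancer line that carries firefly luciferase and is labelled 4T1, with an antibody against CD276 that carries a pair of drugs. DXd, the first drug, inhibits topoisomerase I, and IMQ, the other, activates the receptors TLR7 and TLR8. Female BALB/cJ mice were injected under the skin at 6 weeks of age and later received saline (another label of the same tumors says PBS) or the conjugate, called mAb-DXd/IMQ (HumCD276-Dxd/IMQ in the labels), at 16 mg/kg into a vein every 4 days for 5 courses. Poly-A RNA was sequenced from whole tumors taken at the end, with 4 tumors per group from separate mice. The paper reports that tumors of the mAb-DXd/IMQ group were by then far smaller than those of the saline group. It also reports extensive cancer cell death in stained sections of the treated tumors. The part of tumor size and cell death in the differences below was not tested. Total counts were 49398150, 45019927, 56388627 and 69582375 in saline tumors 1 to 4, and 51625237, 46196237, 42965317 and 34591912 in mAb-DXd/IMQ tumors 1 to 4. A count of 3, the limit that a count of 0 allows, corresponds to between 0.0439 and 0.0843 CPM in these tumors (CPM are counts scaled for depth), for counting error only.

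As background, MMPs are made as inactive precursors, in which a cysteine of the propeptide holds the zinc ion of the active site until a protease such as plasmin or furin removes it. Mmp8 and Mmp13 are collagenases, which cut fibrillar collagen, and Mmp2 and Mmp9 are gelatinases, which cut denatured collagen and the type IV collagen of basement membranes. Mmp3 and Mmp10 are stromelysins with many substrates, Mmp11 (stromelysin 3) is activated inside the cell by furin, Mmp14 is a transmembrane enzyme that activates the Mmp2 precursor, Mmp25 is held on the cell surface by a lipid anchor and is known from leukocytes, and Mmp19 is a secreted member of its own branch. The inhibitors of the Timp family and the membrane protein Reck block these enzymes. In tumors the transcripts can come from cancer cells, fibroblasts, macrophages and neutrophils. In bulk RNA, fewer cells of a type and less RNA per cell cannot be told apart.

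The stretch that binds the catalytic zinc is shown because all MMPs need it to cut. ADAM and ADAMTS proteases carry a like stretch, so its presence alone does not mark a gene as an MMP. It was found in 10 of 10 members, at 1 place each, in the coding sequence of GENCODE vM21 transcripts on GRCm38. Each stretch holds 33 bases and starts with the codons of a histidine and the catalytic glutamate, and the capitals mark the 3 histidine codons and the 1 glutamate codon. The members are listed by class, with the leukocyte enzyme Mmp25 at the top.
Mmp25 (chr17:23632843-23632875, minus strand): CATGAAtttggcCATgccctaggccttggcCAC
Mmp14 (chr14:54437627-54437659, plus strand): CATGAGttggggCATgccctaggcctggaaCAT
Mmp2 (chr8:92839279-92839311, plus strand): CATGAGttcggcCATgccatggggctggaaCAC
Mmp9 (chr2:164951133-164951165, plus strand): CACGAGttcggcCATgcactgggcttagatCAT
Mmp8 (chr9:7563086-7563118, plus strand): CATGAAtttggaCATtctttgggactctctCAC
Mmp13 (chr9:7276573-7276605, plus strand): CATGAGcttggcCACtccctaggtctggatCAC
Mmp3 (chr9:7449775-7449807, plus strand): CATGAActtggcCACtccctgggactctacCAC
Mmp10 (chr9:7504858-7504890, plus strand): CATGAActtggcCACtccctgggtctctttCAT
Mmp11 (chr10:75926931-75926963, minus strand): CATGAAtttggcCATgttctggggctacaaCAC
Mmp19 (chr10:128795673-128795705, plus strand): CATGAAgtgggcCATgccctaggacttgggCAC
Of the 33 bases, 15 were the same in all 10 members. Over the 45 pairs of members the number of identical bases ran from 20 to 29, with a median of 24. The stromelysins Mmp3 and Mmp10 shared 29, and so did Mmp25 and Mmp19. The stretch lay in exon 5 of 8 members and in exon 8 of the gelatinases Mmp2 and Mmp9, 2 genes known to carry extra fibronectin-like exons inside the catalytic domain.

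Mmp25 was lower in every mAb-DXd/IMQ tumor than in any saline tumor, at 3.12 ± 0.594 CPM (SD, n = 4) against 10.03 ± 2.25 CPM. The ranges of the other 9 members overlapped between the groups. The gelatinase Mmp9 and the stromelysin Mmp10 had higher means in the mAb-DXd/IMQ tumors, with wide spreads, while the abundant members Mmp14, Mmp3 and Mmp13 had nearly the same means in both groups. Log2 fold changes, mAb-DXd/IMQ over saline, were above 0 for 3 members (Mmp8, Mmp9 and Mmp10) and below 0 for 7, with a median of -0.12, against a median of 0.02 over all 18511 genes tested. These signs held under each scaling tried, while leaving out a tumor turned the sign of Mmp2 (without saline tumor 4), Mmp3 (without saline tumor 4 or mAb-DXd/IMQ tumor 4), and Mmp8 and Mmp13 (each without mAb-DXd/IMQ tumor 4). All 10 members passed the filter on low counts.

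In the fit over all genes by edgeR's quasi-likelihood method, the thresholds were a Benjamini-Hochberg adjusted p under 0.05 and an absolute log2 fold change over 0.58. The count of members past both was 1 of 10 (Mmp25), where 1.06% of all genes tested were (0.519% lower and 0.546% higher in mAb-DXd/IMQ). Groups without overlap in CPM were seen for 1 of 10 members, where 13.1% of all genes tested had them. The count past both thresholds was 0 of 10 without saline tumor 3, saline tumor 4 or mAb-DXd/IMQ tumor 4, and 0 with a block that pairs tumors by replicate number, where the log2 fold change of Mmp25 was -1.67 against -1.68. Since the members were chosen from this contrast, nothing is read from these counts. As a background for the counts in the lists of other genes below, 18.9% of all genes tested had an unadjusted p under 0.05 and 4.25% were past both thresholds by DESeq2. Of all genes tested, 101 rose and 96 fell, and this count of 197 dropped to 10 without saline tumor 3, 11 without saline tumor 4, 12 without mAb-DXd/IMQ tumor 4, 76 without mAb-DXd/IMQ tumor 2, 88 without mAb-DXd/IMQ tumor 3 and 111 without saline tumor 2.

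**Figure D1:**
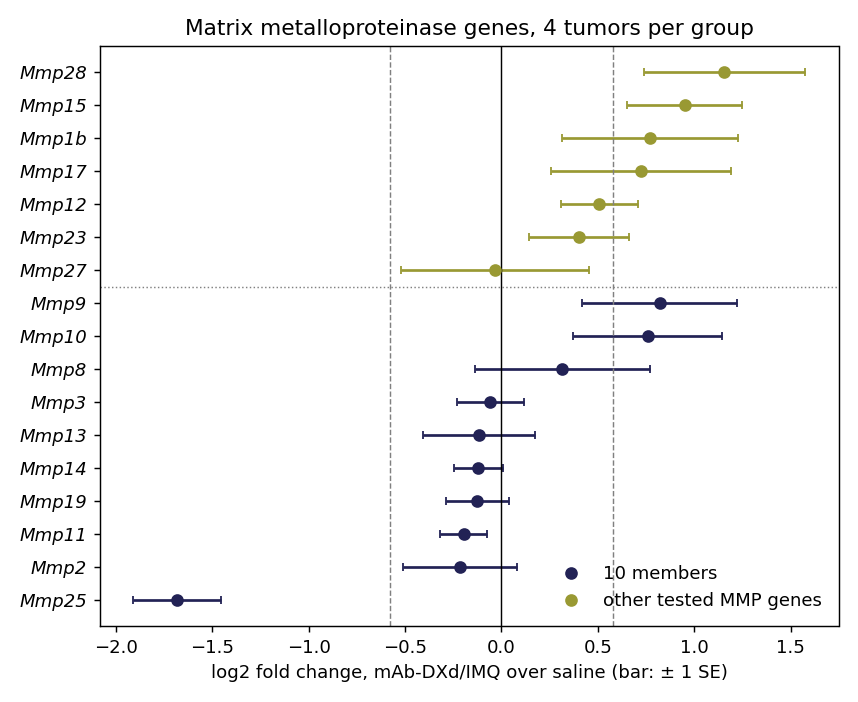
Log2 fold change of each of the 10 members (below the dotted line) and of the 7 other tested MMP genes (above it), mAb-DXd/IMQ over saline, with 1 standard error (SE) on each side and 4 tumors per group. Dashed lines mark the threshold of 0.58 in either direction. Mmp25 lies at -1.68, and the sign of Mmp2, Mmp3, Mmp8 and Mmp13 turned when a tumor was left out.

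Levels of different genes are compared here in TPM, which are counts divided by the gene length in the table and then scaled for depth. Over the 8 tumors the order of mean TPM was Mmp9 (303), Mmp13 (243), Mmp14 (226), Mmp3 (171), Mmp10 (61.4), Mmp2 (52.6), Mmp11 (37.5), Mmp19 (11.5), Mmp25 (3.51) and Mmp8 (1.89). The neighbours Mmp9 and Mmp13, Mmp13 and Mmp14, Mmp10 and Mmp2, Mmp2 and Mmp11, and Mmp25 and Mmp8 differed by less than the larger of their SDs. In the saline tumors the collagenase Mmp13 came before Mmp14 and Mmp9, and in the mAb-DXd/IMQ tumors the gelatinase Mmp9 came before Mmp13 and Mmp14, but the means of these 3 genes lay within the larger SD of their neighbour in each group. The other places that differed between the groups were those of Mmp2 and Mmp10 and those of Mmp25 and Mmp8, with Mmp25 ahead of Mmp8 in saline and behind it in mAb-DXd/IMQ. Among the 18511 genes tested, ranked by mean TPM, Mmp9 stood at place 614 in saline and 319 in mAb-DXd/IMQ, Mmp14 at 561 and 608, and Mmp25 at 11566 and 14610. The median gene had 11.1 TPM in saline and 10.9 TPM in mAb-DXd/IMQ, so 7 members lay well above it in both groups and Mmp19 close to it.

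**Figure D2:**
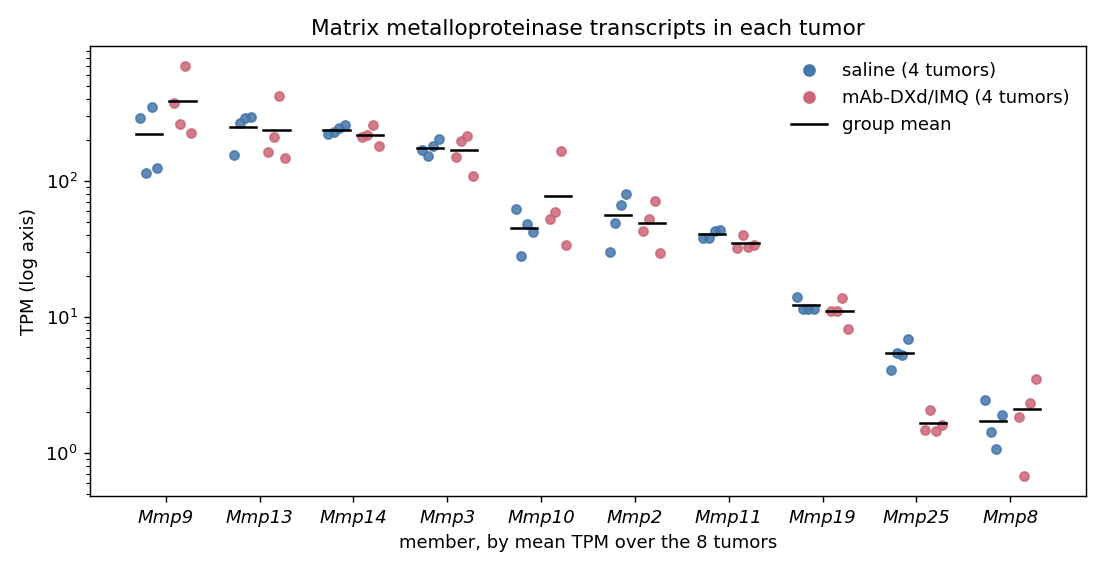
TPM of each member in each of the 8 tumors on a log axis, with the members in the order of their mean over all tumors. Points are tumors and black lines are group means (n = 4 per group). Mmp25 is the member whose groups do not overlap, with means of 5.37 TPM in saline and 1.65 TPM in mAb-DXd/IMQ.

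Mmp25 (ENSMUSG00000023903, chr17:23628311-23645277, minus strand, GRCm38) encodes a lipid-anchored MMP known from leukocytes. Its counts were 360, 449, 552 and 875 in saline tumors 1 to 4, and 152, 181, 111 and 109 in mAb-DXd/IMQ tumors 1 to 4. Scaled for depth, these were 7.30, 10.1, 9.89 and 12.8 CPM in saline, and 3.14, 3.88, 2.42 and 3.06 CPM in mAb-DXd/IMQ. Saline tumor 4 was the highest and saline tumor 1 the lowest of its group, and all 4 mAb-DXd/IMQ tumors lay below saline tumor 1. The log2 fold change was -1.68 (SE 0.23). It stayed between -1.81 (without saline tumor 1) and -1.54 (without saline tumor 4) when tumors were left out. Its share of the summed TPM of the 10 members was 0.515% in saline and 0.140% in mAb-DXd/IMQ. A pair of processed pseudogenes overlap the gene on the opposite strand, and they held 6 counts in all 8 tumors together, against 2789 for Mmp25.

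Because Mmp25 is known from neutrophils, its level is set beside neutrophil markers, of which 10 of 13 passed the filter. Their summed TPM was 964, 269, 322 and 449 in saline tumors 1 to 4, and 97.0, 150.2, 188 and 227 in mAb-DXd/IMQ tumors 1 to 4, so these groups did not overlap either. Saline tumor 1 had the highest marker sum of all tumors and the lowest Mmp25 of the saline group. The most abundant marker was S100a9, a subunit of calprotectin, at 300.7 ± 231 TPM in saline and 84.3 ± 28.4 TPM in mAb-DXd/IMQ (n = 4 each), where the mean sums of the list were 501 and 165 TPM. Log2 fold changes were below 0 for 7 of the 10 and above 0 for 3, the highest at 0.30. By edgeR, 1 of the 10 fell and 0 rose, with 4 at an unadjusted p under 0.05 and 3 past the thresholds by DESeq2. The gene that fell was Csf3r, the receptor for granulocyte colony-stimulating factor, which was lower in all 4 mAb-DXd/IMQ tumors than in any saline tumor (log2 fold change -0.80, SE 0.16, edgeR adjusted p = 0.0402). The call on Csf3r held in 5 of 15 alternatives (adjusted p from 5.3e-04 to 0.134), and among the tumors left out in turn it held only without mAb-DXd/IMQ tumor 1 (log2 fold changes from -0.87 to -0.68 over the 8 tumors left out). The defining markers Ly6g, Camp and Mpo were below the filter, with 57, 40 and 50 counts over the 8 tumors, and no marker of the list was at 0 in all of them. The part of neutrophil content in the Mmp25 difference was not tested.

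**Figure D3:**
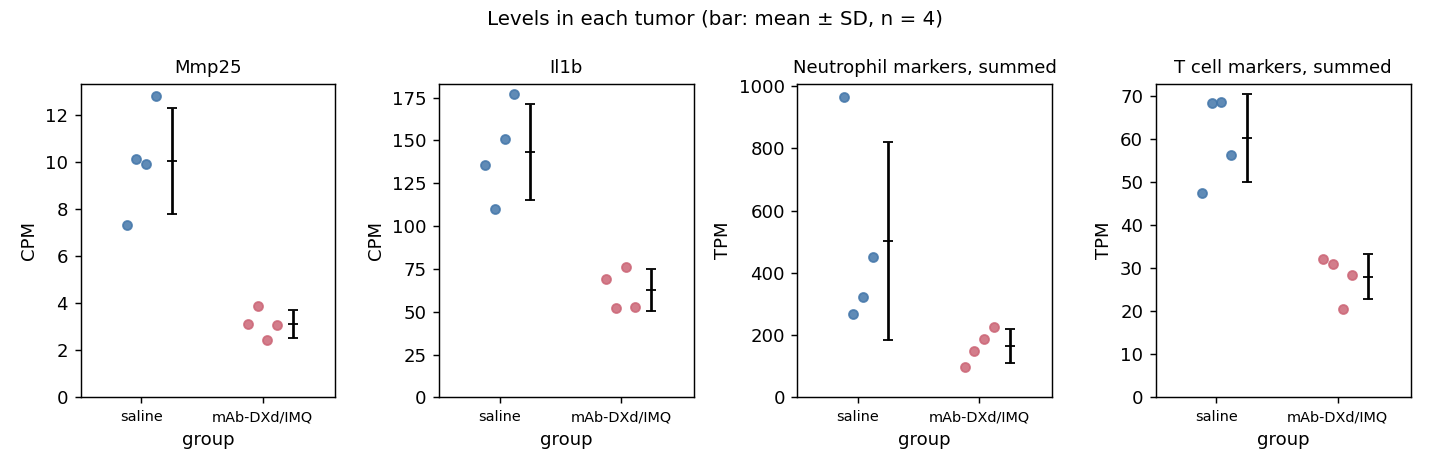
Mmp25 and Il1b in CPM, and the summed TPM of the neutrophil and T cell markers, in each tumor of each group. Points are tumors and bars are the mean ± SD (n = 4). In all 4 panels the mAb-DXd/IMQ tumors lie below the saline tumors, with Mmp25 at 3.12 ± 0.594 against 10.03 ± 2.25 CPM.

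Among the gelatinases, Mmp9 (ENSMUSG00000017737) had 290.1, 113, 349.6 and 124 TPM in saline tumors 1 to 4, and 371, 261, 693 and 224 TPM in mAb-DXd/IMQ tumors 1 to 4. mAb-DXd/IMQ tumors 1 and 3 lay above every saline tumor, and mAb-DXd/IMQ tumors 2 and 4 lay among them. The means were 219 ± 119 and 387 ± 213 TPM (SD, n = 4 each), a difference smaller than the larger SD, and the log2 fold change was 0.82 (SE 0.40). It was 0.48 without mAb-DXd/IMQ tumor 3 and 1.15 without saline tumor 3. Mmp9 was among the more variable genes, with a mean within-group SD of 0.744 on the log2 scale, above that of 86.7% of the genes tested. Its share of the members' summed TPM was 21.05% in saline and 32.8% in mAb-DXd/IMQ. Mmp2 (ENSMUSG00000031740), the gelatinase that Mmp14 activates, ranged from 29.98 to 79.9 TPM in saline and from 29.3 to 71.1 TPM in mAb-DXd/IMQ. The log2 fold change of Mmp2 was -0.21 (SE 0.29), and it was 0.01 without saline tumor 4, its highest tumor, and -0.44 without saline tumor 1.

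Of the collagenases, Mmp13 (ENSMUSG00000050578) had 153, 264, 288 and 296 TPM in saline tumors 1 to 4, and 164, 209, 421 and 146 TPM in mAb-DXd/IMQ tumors 1 to 4. mAb-DXd/IMQ tumor 3 stood above every saline tumor, and the other mAb-DXd/IMQ tumors lay in the lower part of the saline range or just under it. The means were 250.2 ± 66.1 and 235 ± 127 TPM (n = 4 each), with a log2 fold change of -0.12 (SE 0.29) that was -0.47 without mAb-DXd/IMQ tumor 3 and 0.05 without mAb-DXd/IMQ tumor 4. Mmp8 (ENSMUSG00000005800), the collagenase stored in neutrophil granules, was the scarcest member, at 1.70 ± 0.598 TPM in saline and 2.08 ± 1.18 TPM in mAb-DXd/IMQ. Its lowest count was 27, in mAb-DXd/IMQ tumor 2, and its highest level, 3.51 TPM, was in mAb-DXd/IMQ tumor 4. The log2 fold change of Mmp8 was 0.32 (SE 0.45), and it was -0.05 without that highest tumor and 0.61 without mAb-DXd/IMQ tumor 2. Mmp8 and Mmp25, both known from neutrophils, thus had fold changes of opposite sign, although that of Mmp8 was smaller than its SE.

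The stromelysins Mmp3 and Mmp10 lie with Mmp13 and Mmp8 in a cluster of 10 Mmp genes on chromosome 9, between 7272514 and 7699585 (427 kb, GRCm38), with 3 other genes in between. In order along the chromosome the cluster holds Mmp13, Mmp12, Mmp1b, Mmp3, Mmp1a, Mmp10, Mmp8, Mmp27, Mmp20 and Mmp7, of which 9 are on the plus strand and Mmp1b is on the minus strand. Neighbouring genes had very different levels. Mmp13 had a mean of 250.2 TPM in saline, Mmp12 (the macrophage elastase) 40.1 TPM, Mmp1b 0.518 TPM and Mmp3 174.8 TPM, while Mmp20, the enamel protease, and Mmp7 had 0 counts in all 8 tumors. Mmp10 (ENSMUSG00000047562) had 62.3, 28.1, 47.8 and 42.1 TPM in saline tumors 1 to 4, and 52.7, 58.8, 166 and 33.6 TPM in mAb-DXd/IMQ tumors 1 to 4. mAb-DXd/IMQ tumor 3 was far above the rest, and the other mAb-DXd/IMQ tumors lay within the saline range. The log2 fold change of Mmp10 was 0.76 (SE 0.38) and was 0.19 without mAb-DXd/IMQ tumor 3. Mmp3 (ENSMUSG00000043613) ranged from 151 to 203 TPM in saline and from 108 to 214 TPM in mAb-DXd/IMQ, with a log2 fold change of -0.06 (SE 0.17) that ran from -0.14 (without mAb-DXd/IMQ tumor 2) to 0.10 (without mAb-DXd/IMQ tumor 4). The pair is similar enough in sequence for short reads to be shared, since 147 of the 1752 stretches of 50 bases in Mmp3 (8.39%) and 140 of the 1673 in Mmp10 (8.37%) occur in another gene, for Mmp10 in Mmp3 and for Mmp3 in Mmp10 or Gm15244. How such reads were counted is not given in the sources used here.

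The start regions of the 4 members in the cluster are shown because 3 of them carry the same pair of short motifs in the same order. RefSeq promoter windows (300 bases, 250 before and 50 after the annotated start, GRCm38.p6) matched 7 of the 10 members, Mmp25, Mmp3, Mmp8, Mmp10, Mmp11, Mmp13 and Mmp14. The search used the AP-1 motif TGANTCA and the TATA motif TATAAA on both strands, and these motifs do not overlap each other in the windows printed. Mmp3, Mmp10 and Mmp13 held 1 match to each, with the AP-1 match before the TATA match. From the annotated start, the AP-1 match begins 46 bases before it in Mmp3, 63 in Mmp10 and 35 in Mmp13, and the TATA match 7, 29 and 16 bases before it. Mmp8 held 1 TATA match, on the opposite strand, and Mmp25, Mmp11 and Mmp14 held neither motif in this window. Of all 32851 promoter windows, 7.81% held the AP-1 motif, 13.6% the TATA motif and 1.54% both. A match describes letters in a window and is not evidence of binding. Capitals mark the matches, and Mmp25, without a match, is printed for comparison as the member whose groups did not overlap.
Mmp3 (chr9:7445572-7445871, plus strand): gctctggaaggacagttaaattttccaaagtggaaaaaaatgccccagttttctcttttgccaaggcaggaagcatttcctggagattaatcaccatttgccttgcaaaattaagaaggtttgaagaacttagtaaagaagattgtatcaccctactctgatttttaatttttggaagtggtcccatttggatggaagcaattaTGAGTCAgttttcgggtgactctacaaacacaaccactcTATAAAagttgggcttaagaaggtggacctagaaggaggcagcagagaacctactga
Mmp10 (chr9:7502092-7502391, plus strand): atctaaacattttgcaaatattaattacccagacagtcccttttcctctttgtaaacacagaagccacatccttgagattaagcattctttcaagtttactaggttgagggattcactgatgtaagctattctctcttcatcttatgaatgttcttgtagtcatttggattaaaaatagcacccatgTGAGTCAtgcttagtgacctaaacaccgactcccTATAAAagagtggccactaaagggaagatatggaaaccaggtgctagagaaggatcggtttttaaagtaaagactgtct
Mmp13 (chr9:7272264-7272563, plus strand): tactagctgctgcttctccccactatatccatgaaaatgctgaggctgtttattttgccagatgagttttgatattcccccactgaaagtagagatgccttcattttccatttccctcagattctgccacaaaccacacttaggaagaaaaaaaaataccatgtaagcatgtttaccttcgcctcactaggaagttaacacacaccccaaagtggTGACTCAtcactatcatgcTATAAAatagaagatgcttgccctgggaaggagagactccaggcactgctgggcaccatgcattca
Mmp8 (chr9:7558179-7558478, plus strand): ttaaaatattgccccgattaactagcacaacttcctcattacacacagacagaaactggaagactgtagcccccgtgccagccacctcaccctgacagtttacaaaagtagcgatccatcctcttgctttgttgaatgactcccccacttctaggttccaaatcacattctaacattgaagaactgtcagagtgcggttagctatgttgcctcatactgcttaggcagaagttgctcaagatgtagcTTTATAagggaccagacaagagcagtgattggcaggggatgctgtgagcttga
Mmp25 (chr17:23645220-23645519, minus strand): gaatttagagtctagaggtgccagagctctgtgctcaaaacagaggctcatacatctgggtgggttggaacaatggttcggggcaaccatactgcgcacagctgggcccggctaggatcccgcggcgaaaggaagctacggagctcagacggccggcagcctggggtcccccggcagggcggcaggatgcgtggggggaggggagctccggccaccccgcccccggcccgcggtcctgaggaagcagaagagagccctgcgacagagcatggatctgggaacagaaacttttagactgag
In TPM the 3 genes with both motifs each had their highest value of all 8 tumors in mAb-DXd/IMQ tumor 3. This was not particular to them. Mmp14, which held neither motif, was also highest there (257 TPM, against 256 TPM in saline tumor 4). So was Mmp9, which had no matched window (693 TPM). In CPM mAb-DXd/IMQ tumor 3 was the highest for Mmp9, Mmp10 and Mmp13, while Mmp3 and Mmp14 were highest in saline tumor 4. The log2 fold changes of the 3 genes with both motifs were -0.06 (SE 0.17) for Mmp3, 0.76 (SE 0.38) for Mmp10 and -0.12 (SE 0.29) for Mmp13. That of Mmp10 was 0.19 without mAb-DXd/IMQ tumor 3, and those of Mmp3 and Mmp13 turned sign without mAb-DXd/IMQ tumor 4. Whether these genes moved together between the groups was not tested.

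Mmp14 (ENSMUSG00000000957), the transmembrane enzyme, was the steadiest of the abundant members. It ranged from 219.6 to 256 TPM in saline and from 179 to 257 TPM in mAb-DXd/IMQ, with a log2 fold change of -0.12 (SE 0.13) that ran from -0.17 (without saline tumor 1) to -0.04 (without mAb-DXd/IMQ tumor 4). Its mean within-group SD was 0.149 on the log2 scale, and 15.8% of the genes tested had a smaller one. Mmp11 (ENSMUSG00000000901), stromelysin 3, had 40.3 ± 3.06 TPM in saline and 34.6 ± 3.78 TPM in mAb-DXd/IMQ (SD, n = 4 each), a difference larger than either SD, with 1 mAb-DXd/IMQ tumor (tumor 2, at 40.2 TPM) among the saline values. The log2 fold change of Mmp11 was -0.19 (SE 0.12), and it ran from -0.27 (without mAb-DXd/IMQ tumor 2) to -0.12 (without mAb-DXd/IMQ tumor 3). Chchd10 overlaps Mmp11 on the opposite strand over 3367 bases and held 752 counts in the 8 tumors, against 14752 for Mmp11. Mmp19 (ENSMUSG00000025355) had 12.1 ± 1.31 TPM in saline and 10.9 ± 2.31 TPM in mAb-DXd/IMQ, with a log2 fold change of -0.12 (SE 0.16) that ran from -0.20 (without mAb-DXd/IMQ tumor 1) to -0.0019 (without mAb-DXd/IMQ tumor 4). Of its 3353 stretches of 50 bases, 852 (25.4%) occur on the opposite strand in Tmem198b or Gm47093, and Tmem198b held 4386 counts against 5717 for Mmp19. The labels leave it unresolved whether the libraries kept strand information, so reads of the stretches that Mmp19 shares cannot be told apart here. In the Mmp11 transcript examined, 0 of 1744 stretches of 50 bases occur in another gene on either strand.

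Saline tumor 4 had the highest TPM of its group for 6 members (Mmp25, Mmp2, Mmp3, Mmp11, Mmp13 and Mmp14), while saline tumor 2 had the lowest for 5 (Mmp3, Mmp9, Mmp10, Mmp11 and Mmp19). Saline tumor 1 was the lowest for 4 (Mmp25, Mmp2, Mmp13 and Mmp14) and the highest for 3 (Mmp8, Mmp10 and Mmp19), and saline tumor 3 was the highest for Mmp9 and the lowest for Mmp8. Within the mAb-DXd/IMQ group, tumor 3 had the highest TPM for 7 members (Mmp2, Mmp3, Mmp9, Mmp10, Mmp13, Mmp14 and Mmp19), while tumor 4 was the lowest for all 7 of these and the highest for Mmp8. In CPM, tumor 3 was the highest of that group for 4 of them (Mmp2, Mmp9, Mmp10 and Mmp13) and tumor 4 was again the lowest for the same 7. Tumor 3 was also the lowest of its group for Mmp25 on both scales. The summed TPM of the 10 members was 981, 888, 1233 and 1064 in saline tumors 1 to 4, and 1034, 1047, 1872 and 767 in mAb-DXd/IMQ tumors 1 to 4. The means, 1041 ± 147 and 1179.9 ± 479 TPM (SD, n = 4 each), differed by less than the larger SD. As a share of all counts the members made up 0.126 ± 0.0178% in saline and 0.144 ± 0.0460% in mAb-DXd/IMQ.

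**Figure D4:**
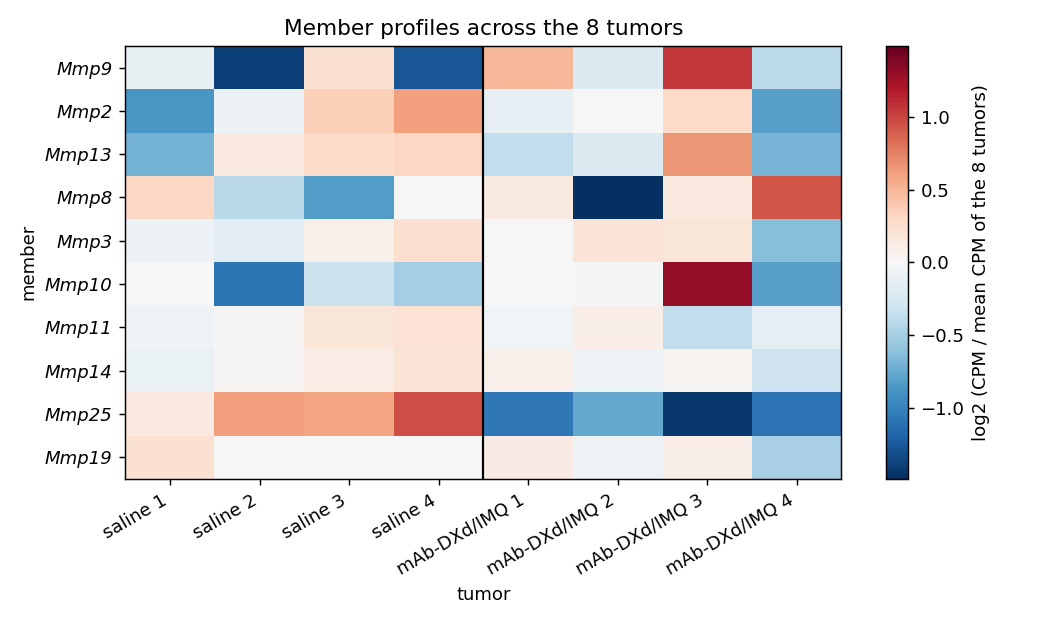
Log2 of CPM over the mean CPM of the 8 tumors for each member (lines of squares) and each tumor (columns, saline left of the black line). Mmp25 is above its mean in the 4 saline tumors and below it in the 4 mAb-DXd/IMQ tumors, and Mmp10 reaches 1.31 in mAb-DXd/IMQ tumor 3.

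For the 3 most abundant members, the genes with the most similar profile over the 8 tumors were sought among 10758 genes with a mean of at least 8 CPM, by the mean absolute difference of centred log2 CPM. For Mmp9, whose own SD over the tumors was 0.832, they were Pkp2 (0.229), Tnc (0.250) and Erfe (0.250). For Mmp13, with an SD of 0.497, they were Prdm1 (0.121), Gpr153 (0.124) and Cd180 (0.141). For Mmp14, with an SD of 0.153, they were Noc3l (0.0344), Top1 (0.0445) and Pla2g7 (0.0479). The small differences for Mmp14 also reflect its small SD. These are the nearest of 10758 genes over 8 tumors, and how near the nearest would lie by chance was not worked out. Nothing about shared control is read from them.

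Around the members, 90 genes in 8 lists were followed, of which 79 passed the filter on low counts. By edgeR 1 rose (0.546% of all genes tested rose) and 1 fell (0.519% of all genes tested fell), with a median log2 fold change of 0.01. Groups did not overlap for 11 of the 79 (13.9%), against 13.1% of all genes tested. An unadjusted p under 0.05 was found for 23 (29.1%, against 18.9% of all genes tested), and 8 were past the thresholds by DESeq2 (10.1%, against 4.25%). The gene that fell was Il1b, the inflammatory cytokine interleukin 1 beta, a known inducer of MMP transcription. Il1b had 135, 110, 151 and 177 CPM in saline tumors 1 to 4, and 69.3, 52.2, 76.4 and 52.8 CPM in mAb-DXd/IMQ tumors 1 to 4. All 4 mAb-DXd/IMQ tumors lay below every saline tumor (log2 fold change -1.19, SE 0.17, edgeR adjusted p = 0.0201). The gene that rose was Ctsg, cathepsin G, a serine protease of neutrophil and mast cell granules that can activate MMPs. It had 8, 0, 8 and 3 counts in saline tumors 1 to 4, and 47, 46, 56 and 64 in mAb-DXd/IMQ tumors 1 to 4, so its level was low in every tumor, at no more than 1.80 CPM. All 4 mAb-DXd/IMQ tumors were above every saline tumor (log2 fold change 3.79, SE 0.68, edgeR adjusted p = 0.0290). The call on Il1b held in 11 of 15 alternatives (adjusted p from 1.08e-07 to 0.0846) and that on Ctsg in 8 of 14 (from 5.3e-07 to 0.119). Both were lost without saline tumor 3, saline tumor 4 or mAb-DXd/IMQ tumor 4, where by edgeR 0 of these genes passed (19, 16 and 20 at an unadjusted p under 0.05). The log2 fold changes were then -1.17, -1.07 and -1.11 for Il1b and 4.13, 3.55 and 3.57 for Ctsg. With the block by replicate number both calls were lost too (log2 fold change -1.19, edgeR adjusted p = 0.0587 for Il1b, and 3.99 and 0.0951 for Ctsg). The call on Ctsg was also lost without mAb-DXd/IMQ tumor 2 (3.88) or mAb-DXd/IMQ tumor 3 (3.79), where Il1b alone passed. Without saline tumor 2 there were 4 (Cma1, Ctsg, Il1b and Tpsb2), and without mAb-DXd/IMQ tumor 1 there were 3 (Col4a2, Ctsg and Il1b).

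Of the 13 other MMP genes, 7 passed the filter and 6 did not (Mmp1a, Mmp7, Mmp16, Mmp20, Mmp21 and Mmp24). By edgeR 0 of the 7 were past the thresholds, with 3 at an unadjusted p under 0.05 and 1 past them by DESeq2, and the median log2 fold change was 0.72, with 6 of 7 above 0. Mmp12, the macrophage elastase, was the most abundant, at 40.1 ± 10.8 TPM in saline and 55.5 ± 10.9 TPM in mAb-DXd/IMQ (log2 fold change 0.51, SE 0.20, edgeR adjusted p = 0.205). Mmp15, a transmembrane relative of Mmp14 picked out after its values were seen, had groups that did not overlap, at 1.44 to 4.58 TPM in saline and 6.004 to 7.49 TPM in mAb-DXd/IMQ (log2 fold change 0.95, SE 0.30, edgeR adjusted p = 0.126). It is the gene that passed by DESeq2, the only 1 of 15 alternatives in which it did (adjusted p from 0.0258 to 0.240).

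Of the 6 MMP inhibitors, 5 passed the filter and Timp4 did not. By edgeR 0 were past the thresholds, with 2 at an unadjusted p under 0.05 and 1 (Timp1) past them by DESeq2. Log2 fold changes were above 0 for 1 of the 5 (Timp1) and below 0 for 4, with a median of -0.30. Timp2, which also takes part in the activation of Mmp2 by Mmp14, was the most abundant, at 353 ± 34.1 TPM in saline and 323 ± 20.3 TPM in mAb-DXd/IMQ (log2 fold change -0.11, SE 0.11, edgeR adjusted p = 0.662). Timp1, picked out after its values were seen, had 148.9 to 231 TPM in saline and 266 to 331 TPM in mAb-DXd/IMQ, with no overlap (log2 fold change 0.63, SE 0.16, edgeR adjusted p = 0.0706, from 0.0119 to 0.190 over 15 alternatives). The summed TPM of the Timp genes was 550.0 ± 54.3 in saline and 614 ± 28.5 in mAb-DXd/IMQ. The ratio of the members' sum to the Timp sum was 1.56, 1.69, 2.41 and 2.00 in saline tumors 1 to 4, and 1.59, 1.75, 3.01 and 1.31 in mAb-DXd/IMQ tumors 1 to 4. Its means, 1.91 ± 0.379 and 1.91 ± 0.750 (SD, n = 4 each), were the same to this precision.

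In the plasminogen system, whose product plasmin activates several MMPs, 6 of 8 genes passed the filter. All 6 had log2 fold changes above 0, but 0 were past the thresholds by edgeR, with 2 at an unadjusted p under 0.05 and 2 past them by DESeq2. Plau, the urokinase that makes plasmin, was the most abundant, at 192 ± 13.7 TPM in saline and 308 ± 89.1 TPM in mAb-DXd/IMQ, with no overlap (log2 fold change 0.69, SE 0.16, edgeR adjusted p = 0.0591). It passed in 3 of 15 alternatives, with adjusted p from 3.62e-03 to 0.177. The summed TPM of the list was 411 ± 25.5 in saline and 594 ± 169 in mAb-DXd/IMQ, without overlap between the groups. Among 9 serine proteases that can activate MMPs, 8 passed the filter and 1 rose (Ctsg, above) while 0 fell, with 3 at an unadjusted p under 0.05 and 2 past the thresholds by DESeq2. Furin, which activates Mmp11 and Mmp14, had 82.5 ± 12.7 TPM in saline and 72.0 ± 11.1 TPM in mAb-DXd/IMQ (log2 fold change -0.18, SE 0.12, edgeR adjusted p = 0.441), with fold changes from -0.24 to -0.09 over the tumors left out. The mast cell proteases Tpsb2 and Cma1, picked out after their values were seen, had the lowest fold changes of the list. Tpsb2 had 188, 13.8, 130.1 and 171 TPM in saline tumors 1 to 4, and 7.45, 35.9, 9.86 and 32.2 TPM in mAb-DXd/IMQ tumors 1 to 4, so saline tumor 2 lay among the mAb-DXd/IMQ tumors (log2 fold change -2.54, SE 0.70, edgeR adjusted p = 0.0900). Cma1 showed a like pattern, with saline tumor 2 at 3.95 TPM and the other saline tumors from 56.0 to 78.7 TPM (log2 fold change -2.68, SE 0.79, edgeR adjusted p = 0.107). Over 15 alternatives Tpsb2 passed in 3 (no filter on low counts, DESeq2, and without saline tumor 2) and Cma1 in 2 (no filter, and without saline tumor 2). Their adjusted p ran from 0.0292 to 0.246 for Tpsb2 and from 0.0401 to 0.283 for Cma1.

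Among 6 proteins that bind MMPs at the cell surface or induce them, 0 were past the thresholds by edgeR, with 1 at an unadjusted p under 0.05 and 0 by DESeq2. Bsg (basigin, an inducer of MMPs) was the most abundant, at 631 ± 31.6 TPM in saline and 774 ± 54.0 TPM in mAb-DXd/IMQ (log2 fold change 0.33, SE 0.13, edgeR adjusted p = 0.201), with fold changes from 0.21 to 0.38 over the tumors left out. The groups did not overlap in CPM for Bsg, as for 13.1% of all genes tested. Among 16 matrix substrates 0 were past the thresholds by edgeR, with 2 at an unadjusted p under 0.05 and 1 past them by DESeq2 (Col4a1). Spp1, osteopontin, was the most abundant, with 7154 ± 749 TPM in saline and 6551 ± 2057 TPM in mAb-DXd/IMQ (log2 fold change -0.07, SE 0.27, edgeR adjusted p = 0.917), and its fold change was 0.15 without mAb-DXd/IMQ tumor 3 (edgeR adjusted p = 0.722, from 0.578 to 0.991 over 15 alternatives). Of 14 ADAM and ADAMTS proteases, relatives with the same kind of catalytic zinc, 0 were past the thresholds by edgeR, with 3 at an unadjusted p under 0.05 and 0 by DESeq2. The most abundant of them, Adam10, had 160.4 ± 1.89 TPM in saline and 140.0 ± 10.3 TPM in mAb-DXd/IMQ (log2 fold change -0.16, SE 0.13, edgeR adjusted p = 0.517), with fold changes from -0.27 to -0.08 over the tumors left out. Of 18 factors that induce MMP genes, 17 passed the filter, Il17a was at 0 counts, 1 fell (Il1b, above) and 0 rose, with 7 at an unadjusted p under 0.05 and 1 past the thresholds by DESeq2. Junb, a part of AP-1, was the most abundant, at 547 ± 145 TPM in saline and 369 ± 35.9 TPM in mAb-DXd/IMQ (log2 fold change -0.53, SE 0.20, edgeR adjusted p = 0.175), and its fold change was -0.34 without saline tumor 4 (edgeR adjusted p = 0.431, from 0.0799 to 0.431 over 15 alternatives). The summed TPM of this list was 1418 ± 301 in saline and 1025 ± 50.03 in mAb-DXd/IMQ, without overlap between the groups. The nearest sums lay close, at 1087 TPM in saline tumor 2 and 1082 TPM in mAb-DXd/IMQ tumor 3. Log2 fold changes were above 0 for 7 of the 17 genes and below 0 for 10.

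**Figure D5:**
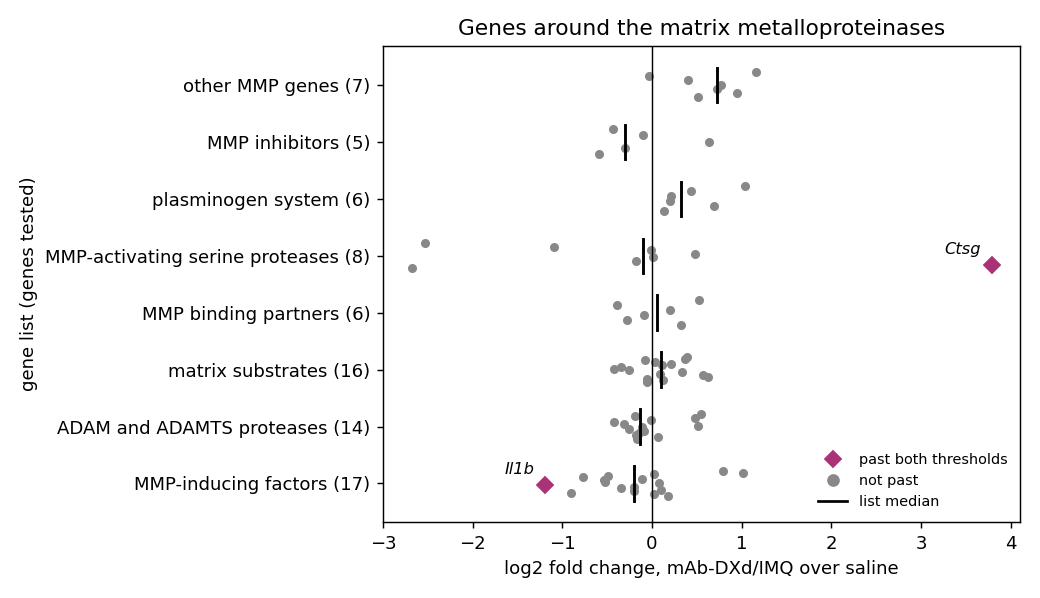
Log2 fold change, mAb-DXd/IMQ over saline, of each of the 79 tested genes in the 8 lists around the members (number tested in brackets), with the list medians as black lines. Diamonds mark the genes past both thresholds, Ctsg at 3.79 and Il1b at -1.19, with 4 tumors per group.

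Markers of the cell types that such tumors can hold were read in the same way. The labels give a carcinoma line, and 7 of 7 tumor epithelial markers were above the filter, none of them at 0, with Krt18 as the most abundant at 1263 ± 84.3 TPM in saline and 1386 ± 222 TPM in mAb-DXd/IMQ. None of these 7 was past the thresholds by edgeR (0 at an unadjusted p under 0.05 and 0 by DESeq2). Their summed TPM was 3538, 2937, 3633 and 3426 in saline tumors 1 to 4, and 4826, 4130.5, 3416 and 3077 in mAb-DXd/IMQ tumors 1 to 4. Of 5 T cell markers, 2 fell and 0 rose by edgeR, with 5 at an unadjusted p under 0.05 (18.9% of all genes tested) and 4 past the thresholds by DESeq2 (4.25% of all genes tested). Their summed TPM was 47.6, 68.4, 68.6 and 56.4 in saline tumors 1 to 4, and 32.2, 31.1, 20.6 and 28.4 in mAb-DXd/IMQ tumors 1 to 4. Cd4 had a log2 fold change of -1.91 (SE 0.25, edgeR adjusted p = 0.0201) and Cd8a, the most abundant of them, one of -1.22 (SE 0.17, edgeR adjusted p = 0.0201), each lower in 4 of 4 mAb-DXd/IMQ tumors than in any saline tumor. Both calls held in 11 of 15 alternatives. They were lost without saline tumor 3, saline tumor 4 or mAb-DXd/IMQ tumor 4, and with the block by replicate number (log2 fold change -1.87, edgeR adjusted p = 0.0695 for Cd4, and -1.24 and 0.0815 for Cd8a), with the highest adjusted p of 0.0846 for each and the lowest of 2.17e-10 for Cd4 and 2.97e-08 for Cd8a. Without those 3 tumors in turn the log2 fold changes were -1.92, -1.77 and -1.90 for Cd4 and -1.17, -1.22 and -1.20 for Cd8a. The part of T cell content in the Mmp25 difference was not tested.

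Among 9 macrophage markers 0 were past the thresholds by edgeR (1 at an unadjusted p under 0.05 and 1 by DESeq2), and all 9 log2 fold changes were below 0. Their summed TPM was 1741, 4944, 2909 and 3301 in saline tumors 1 to 4, and 2942, 2708, 3075 and 2143 in mAb-DXd/IMQ tumors 1 to 4, with C1qa as the most abundant. Among 9 fibroblast markers, with Col6a1 as the most abundant, 0 were past them by edgeR (2 at an unadjusted p under 0.05 and 1 by DESeq2). The fibroblast sum was 482, 493, 683 and 692 TPM in saline tumors 1 to 4, and 594, 553, 934 and 464 TPM in mAb-DXd/IMQ tumors 1 to 4. mAb-DXd/IMQ tumor 3, the highest in Mmp9, Mmp10 and Mmp13, thus also had the highest fibroblast sum, and the part of fibroblast content in those values was not tested. Bone and cartilage markers, of which 3 of 6 passed the filter and Ibsp was the most abundant, summed to 2.46, 14.6, 16.5 and 8.42 TPM in saline tumors 1 to 4, and 27.8, 20.6, 19.5 and 27.1 TPM in mAb-DXd/IMQ tumors 1 to 4, without overlap. By edgeR 0 of these 3 were past the thresholds (1 at an unadjusted p under 0.05 and 0 by DESeq2). Among 6 endothelial markers, with Cdh5 as the most abundant, 0 were past them by edgeR (1 at an unadjusted p under 0.05 and 1 by DESeq2), and the sum was 71.0 ± 24.7 TPM in saline and 89.1 ± 11.3 TPM in mAb-DXd/IMQ. For epidermis (6 of 7 above the filter, Krt14 the most abundant), skeletal muscle (6 of 6, Acta1) and adipocytes (4 of 5, Fabp4), 0 markers were past the thresholds by edgeR, 0 were at an unadjusted p under 0.05, and 0 passed by DESeq2. Their sums were 196 ± 114 and 406 ± 253 TPM for epidermis, 384 ± 263 and 319 ± 138 TPM for muscle, and 16.7 ± 4.44 and 14.6 ± 2.18 TPM for adipocytes, in saline and mAb-DXd/IMQ respectively.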

How the data were processed

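Poly-A RNA of 8 whole tumors, 4 per group, was sequenced on an Illumina instrument, per the labels. The authors deposited whole-number read counts per gene with a gene length in bases (a value of another kind). Their processing notes name HISAT2, HISAT, TopHat2 and mm39 without a role. The gene coordinates in the table are those of GRCm38 (53462 of 54409 genes matched to GENCODE vM21 had identical ones, 98.3%), and coordinates here are in that build. The counting program is not given in the sources used here. Total counts per tumor, 34591912 to 69582375, set the precision.

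Counts were fitted over all genes with edgeR 4.0.16 (filterByExpr with a minimum count of 10, TMM scaling, quasi-likelihood test, no covariates), and p-values were adjusted by Benjamini-Hochberg over 18511 genes. CPM were scaled by TMM, and TPM used the deposited gene length. Alternatives were RLE and upper-quartile scaling, no filter, a filter of a mean of 1 CPM, DESeq2 1.42.0, a block by replicate number, a gene length correction, CPM in place of TPM for levels, and leaving out each tumor. Software was R 4.3.3, limma 3.58.1, Python 3.11.15 and matplotlib 3.10.9. The fit was tested on simulated data. Named genes were all members, of each surrounding list those past the thresholds and the most abundant, of each marker list the same, and for the 3 most abundant members the 3 genes of most similar profile. Mmp15, Timp1, Tpsb2 and Cma1 are outside this rule and were picked after their values were seen, as were genes named behind small counts. The members and lists were chosen with earlier results of these data known. Lists covered other MMP genes, inhibitors, plasminogen system, activating serine proteases, binding partners, substrates, ADAM and ADAMTS proteases, inducing factors, and markers of neutrophils, macrophages, fibroblasts, endothelium, tumor epithelium, epidermis, muscle, adipocytes, bone and cartilage, and T cells.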

Additional observations from a re-analysis of the deposited data

Results flagged for a closer look

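In 4 of the 102 groups of 4 values checked (levels of named genes and marker sums), a tumor lay far from the others of its group. Chance gives this in about 1 in 20 groups, or 5.1 here. Mmp19 was high in saline tumor 1, at 16.8 CPM against 14.3 to 14.4 CPM in the other saline tumors. Csf3r was low in mAb-DXd/IMQ tumor 1, at 14.996 CPM against 21.8 to 22.9 CPM in the others. The summed TPM of the adipocyte markers was high in saline tumor 4, at 23.3 against 13.8 to 15.2, and low in mAb-DXd/IMQ tumor 3, at 11.4 against 15.4 to 16.1.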

How the results depend on the processing

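The count of all genes past the thresholds, 197, was 203 with RLE scaling, 218 with a mean of at least 1 CPM and 218 with upper-quartile scaling (145 up and 73 down, against 101 and 96). It was 358 with no filter, 787 with DESeq2, 120 with the gene length correction (74 up and 46 down) and 14 with the block that pairs tumors by replicate number (10 up and 4 down). Leaving out a tumor gave 10 to 203. The tumors came from separate mice, and the labels give no tie between tumors of the same number. Correlations between tumors of the same number, 1 to 4, were -0.17, -0.05, 0.08 and -0.07. For the 2 genes around the members, the count was 6 with no filter, 1 with a mean of at least 1 CPM, 3 with upper-quartile scaling, 3 with the gene length correction, 8 with DESeq2 and 0 with the block by edgeR (22 of 79 at an unadjusted p under 0.05), and 0 to 4 when tumors were left out. The count of members, 1, was 0 with the block and 0 to 1 when tumors were left out. The cause was not tested.

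All 10 member log2 fold changes moved by less than their within-group SD in 80 values with a tumor left out and 70 under other settings. Leaving out 1 of 4 tumors can hardly move a fold change by that much, so no stability is read from the 80 values. In these fits the signs of Mmp2, Mmp3, Mmp8 and Mmp13 turned. The call on Mmp25 was lost without saline tumor 3, saline tumor 4 or mAb-DXd/IMQ tumor 4. For 17 named other genes, 21 of 136 values with a tumor left out lost the call, 2 gained it and 1 turned sign (Spp1, 0.15 without mAb-DXd/IMQ tumor 3, against -0.07, with a range of -0.27 to 0.15), while of 118 under other settings 7 lost it and 8 gained it. Ctsg gave no value with a mean of at least 1 CPM. Mean TPM of members stayed within the SD in 80 of 80 values with a tumor left out. Leaving out 1 of 4 tumors cannot move a group mean by as much as its SD, so nothing is read from this count. CPM in place of TPM is a change of unit set by gene length. It moved 9 of 20 means beyond the SD and left 4 of 10 members at their place in the order of levels. Without mAb-DXd/IMQ tumor 3, 6 of 10 kept it. Depth limits the scarcest member, Mmp8, whose lowest count was 27.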
